A study of Mus musculus with 2 samples.

Results

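The genes described here are the mouse zinc finger genes named Zfp and a number: protein-coding genes of GENCODE M21 on chromosomes 7, 8, 10, 13 and 17 whose symbol is Zfp followed by digits alone. There were 190 of them among 21938 protein-coding genes of chromosomes 1 to 19, X and Y, with 89 on chromosome 7, 24 on chromosome 8, 5 on chromosome 10, 31 on chromosome 13 and 41 on chromosome 17. A gene was counted as clustered where the gap between its gene body and that of another such gene was 100 kb or less, which held for 135 genes in 25 clusters. The other 55 were counted as solitary. Zfp72 and Zfp825, with a gap of 89.2 kb, were the clustered genes nearest to that limit, and Zfp936 and Zfp715, with a gap of 104 kb, were the solitary genes nearest to it. Of these, Zfp936 alone lacked a promoter peak in both replicates.

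DNase-seq reads out open chromatin as the places in nuclei that DNase I can cut. It was applied to the left cerebral cortex of 2 male mice, 2 months old and untreated as far as the labels say. The mice were of the cross B6CASTF1/J, whose parents are C57BL/6J and CAST/EiJ, and the labels number them biological replicates 1 and 2 of a single group. The tissue was whole cortex, so every peak sums over its cell types, and fewer open cells and less opening in each cell cannot be told apart.

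C2H2 zinc fingers are short modules that hold a zinc ion between cysteines and histidines, and arrays of them read DNA sequence. Many of the proteins also carry a KRAB domain, which recruits the co-repressor Trim28 and through it histone methylation that silences transposable elements and imprinted loci. The genes arose largely by tandem duplication, so that cluster neighbours share sequence, and their fingers are mostly encoded in 1 long 3' exon. By a residue pattern in the annotated coding sequences, 128 of the 190 genes had a KRAB domain, 105 of 135 clustered and 23 of 55 solitary. The pattern was widened after variants on chromosome 7 had been seen, and the narrower form found 119 genes, 96 clustered and 23 solitary. The median was 12 C2H2 fingers in clustered and 10 in solitary genes. The 13 genes with fewer than 3 such patterns included Zfp36, the mRNA decay factor tristetraprolin with fingers of another kind, and Zfp598, a ubiquitin ligase that senses collided ribosomes. The 3' exon held a median of 87.1% of a gene's coding bases, against 15.6% over all protein-coding genes.

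A short stretch of 8 bases recurred in the promoters of some clusters, in 10 of 15 peaks of cluster 7-9 and 7 of 14 of cluster 13-2. The lines that follow were chosen because they hold it, so that their likeness there is fixed by the choice. They give 52 bases of mm10 around the 8 bases AATGTAGT, in capitals, first for cluster 7-9 on chromosome 7 and then for cluster 13-2 on chromosome 13. In each cluster these are the 4 tallest peaks that hold the stretch with at most 30 bases of annotated exon in the window, a limit that left out Zfp712, whose window lies wholly in an annotated exon. Each is written on the strand on which the capitals read so.
Zfp566, chr7:30090557-30090608, plus strand: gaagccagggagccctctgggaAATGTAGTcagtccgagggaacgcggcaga
Zfp790, chr7:29815950-29816001, plus strand: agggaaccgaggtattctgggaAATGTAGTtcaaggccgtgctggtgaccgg
Zfp84, chr7:29768511-29768562, plus strand: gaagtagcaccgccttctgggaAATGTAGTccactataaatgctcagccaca
Zfp420, chr7:29859898-29859949, minus strand: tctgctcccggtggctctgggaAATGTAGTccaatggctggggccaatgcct
Zfp87, chr13:67526189-67526240, minus strand: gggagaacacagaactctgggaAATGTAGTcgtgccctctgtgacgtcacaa
Zfp457, chr13:67306458-67306509, minus strand: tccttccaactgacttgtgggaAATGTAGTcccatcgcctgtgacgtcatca
Zfp953, chr13:67360614-67360665, minus strand: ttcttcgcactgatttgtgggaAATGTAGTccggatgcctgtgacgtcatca
Zfp759, chr13:67128158-67128209, plus strand: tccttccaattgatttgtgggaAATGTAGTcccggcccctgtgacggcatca
The letters ggga stand before the capitals in all 8 lines. A second stretch, AGGTTGGT, picked as the one most in excess in cluster 13-2, was present at every member there. For the 4 tallest peaks of that cluster, 30 bases around it are given.
Zfp87, chr13:67526060-67526089, minus strand: ctctgacatggAGGTTGGTccagggagcag
Zfp457, chr13:67306333-67306362, minus strand: ttctgccatggAGGTTGGTgcagggaacag
Zfp712, chr13:67061046-67061075, minus strand: ctctggcatggAGGTTGGTcccaggatgta
Zfp748, chr13:67553014-67553043, minus strand: cgctgacatggAGGTTGGTccagggtgtcg
In 13 of the 14 genes the annotated end of exon 1 fell inside these 8 bases, after AG in the 4 shown.

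The next 4 lines give 170 bases at the start of transcription, 150 before it and 20 from it, in the gene's direction, with the bases that lay in a footprint of both replicates in capitals. A footprint is a short stretch that DNase I cut less than its surroundings, as called by the authors. Zfp994 and Zfp87 had the tallest promoter peaks of clusters 17-2 and 13-2, Zfp568 encodes the repressor of the placental Igf2 promoter, and Zfp143, a solitary gene, had the tallest promoter peak of the 190 genes and encodes a transcription activator of many housekeeping promoters.
Zfp994, chr17:22225597-22225766, minus strand: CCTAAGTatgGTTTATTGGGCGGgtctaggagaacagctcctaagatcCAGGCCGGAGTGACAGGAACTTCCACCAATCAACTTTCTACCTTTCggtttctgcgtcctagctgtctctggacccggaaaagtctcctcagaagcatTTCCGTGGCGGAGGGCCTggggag
Zfp87, chr13:67526158-67526327, minus strand: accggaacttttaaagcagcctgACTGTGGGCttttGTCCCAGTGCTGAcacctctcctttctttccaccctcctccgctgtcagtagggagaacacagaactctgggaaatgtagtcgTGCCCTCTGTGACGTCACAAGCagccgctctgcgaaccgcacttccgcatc
Zfp568, chr7:29983805-29983974, plus strand: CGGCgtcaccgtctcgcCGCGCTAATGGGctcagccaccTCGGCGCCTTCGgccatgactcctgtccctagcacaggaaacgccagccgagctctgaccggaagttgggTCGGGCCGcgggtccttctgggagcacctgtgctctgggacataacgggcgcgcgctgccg
Zfp143, chr7:110061560-110061729, plus strand: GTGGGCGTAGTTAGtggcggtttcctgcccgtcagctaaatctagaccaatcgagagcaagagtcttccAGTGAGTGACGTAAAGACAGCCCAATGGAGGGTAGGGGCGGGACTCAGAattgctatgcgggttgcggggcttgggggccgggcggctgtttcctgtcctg
Of the 170 bases, 84 lay in footprints of both replicates at Zfp994, 63 at Zfp143, 44 at Zfp87 and 36 at Zfp568. At Zfp87 the footprints covered the bases TGACGTCA, a site of the cyclic AMP response type by its letters, and left out the AATGTAGT beside it.

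For each replicate there were a shorter and a longer peak list. The shorter one, with 63928 peaks in replicate 1 and 76440 in replicate 2 after overlapping intervals were joined, is used unless the longer is named. Peak heights are the authors' values on a scale that is not given, with sequencing depth unknown, so heights are read within a replicate or as a ratio beside that of all genes. Promoters of brain markers carried peaks: 3 of 6 neuronal genes in both replicates and the other 3 in replicate 1 alone, 4 of 4 astrocyte and 2 of 3 oligodendrocyte genes, 1 of 3 microglial and 1 of 3 endothelial genes in both. None of 6 genes of liver, muscle, sperm or red cells had one.

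Nearly all of the Zfp genes had an open promoter. The promoter window reached 500 bp to each side of every transcription start site (TSS) in the annotation, and the promoter was called open where both replicates had a peak there. This held for 177 of 190 genes, 93.2% (exact 95% Clopper-Pearson interval 88.6% to 96.3%), beside 56.2% of all protein-coding genes. In the longer lists it held for 178 genes, beside 61.0% of all. The intervals cover counting error over genes alone, and cluster neighbours are not independent. The share was 84 of 89 on chromosome 7, beside 46.5% of all genes there, and 21 of 24 on chromosome 8, beside 63.8%. It was 30 of 31 on chromosome 13, beside 59.4%, and 39 of 41 on chromosome 17, beside 55.9%. On chromosome 10 it was 3 of 5, close to the 59.1% of all genes there. KRAB genes (120 of 128) and genes without KRAB (57 of 62) had close shares, 93.8% and 91.9%, with overlapping intervals.

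Clustered genes were open more often than solitary ones, 131 of 135 (97.0%, interval 92.6% to 99.2%) against 46 of 55 (83.6%, interval 71.2% to 92.2%), a difference of 13.4 percentage points. The intervals just fail to meet, and with genes that share sequence no test was made of it. The direction was the same under each of the 14 alternatives run, between 8.18 and 14.7 points, including a gap of 50 kb or 200 kb. It was 13.6 points among KRAB genes alone. In 21 of the 25 clusters every member was open, and the 4 exceptions each lacked 1 gene.

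Copies of a promoter elsewhere in the genome bear on which promoters could be seen, since a read that fits several places may not be placed. The share of 25-base words of the promoter windows that occur once in the genome had a median of 93.7% in clustered and 96.9% in solitary genes. Of the 83 clustered genes with at least 90% of such words 83 were open (interval 95.7% to 100%), and of 42 such solitary genes 37 were, beside 64.7% of all genes with such promoters. Below 90%, 48 of 52 clustered and 9 of 13 solitary genes were open, beside 25.6% of all genes. The handling of reads with several matches is unknown.

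The 13 genes that were not open fell into 2 kinds by that measure. Zfp626, Zfp977, Zfp936, Zfp869, Zfp433, Zfp781 and Zfp97 had from 0% to 59.0% single-copy words, no peak in any list and no listed false discovery rate in either replicate. In Zfp433, Zfp781 and Zfp97 no word at all was single-copy. Whether reads could be placed there is unknown, so an absent peak cannot be read as a closed promoter. The other 6 were solitary genes, of which Zfp42 was just under 90% single-copy words and the rest had 94.4% to 99.8%. Zfp42, the pluripotency marker Rex1, and Zfp366, a nuclear receptor co-regulator of dendritic cells, had no peak in any list. Zfp57, which keeps imprinted loci silent in early embryos, had a peak of 0.458 in the longer list of replicate 1 alone. Zfp541, a gene of meiotic cells, and Zfp296, expressed in stem and germ cells, had a peak of 0.505 each in that same list alone. Zfp423, a developmental partner of Ebf factors, was the only one with a peak in the shorter list of 1 replicate: 0.980 in replicate 1, and 0.378 in the longer list of replicate 2.

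CpG density, which goes with open promoters in general, did not separate the Zfp genes as it separated all genes. The ratio of observed to expected CpG within 500 bp of the representative TSS had a median of 0.541 in clustered and 0.662 in solitary genes, and 0.570 over all genes. Below a ratio of 0.4, 14.7% of all 8512 genes were open, and 28 of 32 clustered (87.5%, interval 71.0% to 96.5%) and 6 of 9 solitary Zfp genes were. From 0.4 to 0.6 the counts were 46 of 46 clustered and 11 of 12 solitary genes, beside 62.2% of all. From 0.6 to 0.8 they were 51 of 51 and 18 of 21, beside 85.1%, and from 0.8 up 6 of 6 and 11 of 13, beside 92.3%. The difference was thus widest in the class poorest in CpG, and in the richest the Zfp genes together (17 of 19, 89.5%) were slightly below all genes. With single-copy promoters alone, 11 of 11 clustered genes below 0.4 were open, beside 20.8% of all such genes.

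**Figure D1:**
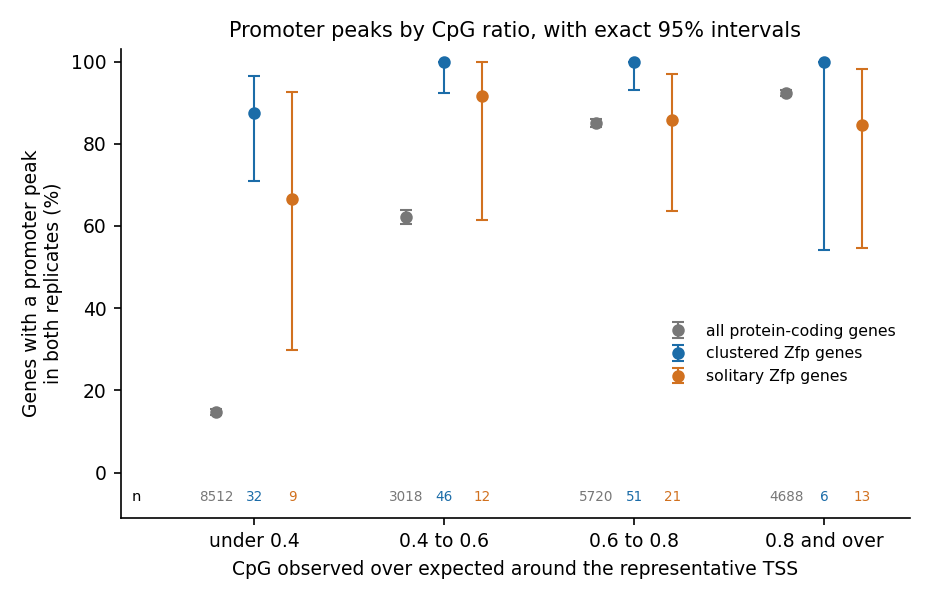
Share of genes with a promoter peak in both replicates (vertical axis, percent) in 4 classes of the CpG ratio (horizontal axis), for all protein-coding genes (grey), clustered (blue) and solitary (orange) Zfp genes. Points are shares, bars exact 95% intervals and the numbers under them the genes in each class. Below 0.4, all genes stand at 14.7% and clustered Zfp genes at 87.5%.

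The peaks of open Zfp promoters were of moderate height. In replicate 1 the median was 2.83 over the 177 open genes, with quartiles of 1.70 and 4.02, beside 3.73 over all open genes. In replicate 2 it was 2.09, with quartiles of 1.13 and 2.67, beside 2.11. Clustered genes had medians of 2.67 and 2.07 and solitary genes of 3.60 and 2.37, and the middle ranges of the groups overlapped in each replicate. Genes without KRAB had medians of 3.83 and 2.30 and KRAB genes of 2.55 and 1.99. Clustered genes with promoters under 90% single-copy had medians of 1.76 and 1.63, against 2.94 and 2.11 for the other clustered genes. The part of copy number in the lower heights was not tested.

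By the geometric mean of both replicates, the 8 tallest promoter peaks belonged to 5 clustered and 3 solitary genes. Zfp143 (chr7) had heights of 10.9 in replicate 1 and 10.1 in replicate 2, so that it led in both animals. Zfp865 had 9.29 and 6.72, in a peak shared with the promoter of its neighbour Ccdc106. Zfp444 had 8.28 and 7.40, and Zfp446 had 8.54 and 5.63. Zfp78 had 7.26 and 6.33 and led the KRAB genes by that mean, although Zfp667 was taller in replicate 1 (8.29 and 3.94). Zfp574, with 6.52 and 6.07, and Zfp526, with 8.23 and 4.36, are solitary genes, and Zfp961 in cluster 8-2 had 7.31 and 4.92. Of these 8, all but Zfp961 lie on chromosome 7.

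By the same mean, the 6 lowest open promoters were all of KRAB genes. Zfp947 had 0.345 and 0.297. Zfp944 and Zfp758 share a single peak of 0.531 and 0.398. Zfp459 had 0.591 and 0.378, Zfp677 had 0.574 and 0.459, and Zfp808 had 0.566 and 0.493. Of the 6, Zfp459 and Zfp677 had promoters with over 98% single-copy words, 98.7% and 98.6%, and the other 4 had 35.1% to 44.9%.

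Genes with a known role spanned much of this range. Zfp318, a nuclear factor known from B cells, had 7.46 and 4.00. Zfp346, which binds double-stranded RNA, had 6.23 and 3.30. Zfp365, a binding partner of the neuronal protein Disc1, had 2.53 and 1.65, and Zfp110, an interactor of the p75 neurotrophin receptor, had 2.57 and 1.24. Zfp36 had 2.28 and 0.986. Zfp536, a repressor of neuronal differentiation, had 1.59 and 0.905. Zfp260, a cardiac regulator in cluster 7-9, had 2.76 and 2.69, and its neighbour Zfp568 had 3.23 and 2.30.

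Heights were lower in replicate 2 for most genes, and less so for the Zfp genes. The log2 ratio of replicate 2 to replicate 1 had a median of −0.45 over the open Zfp genes (−0.41 clustered, −0.65 solitary) and of −0.77 over all open genes. It was −0.39 in KRAB genes and −0.76 in those without KRAB. Restricted to single-copy promoters the clustered genes stood at −0.43 and all genes at −0.78. Below a CpG ratio of 0.4, open Zfp genes stood at −0.26 and all open genes at −0.57. From 0.4 to 0.6 the medians were −0.33 and −0.64, and from 0.6 to 0.8 they were −0.58 and −0.75. From 0.8 up both stood at −0.89. The part of CpG density in the difference was not tested. With 1 animal on each side of the ratio, no difference between animals can be tested. Zfp276 had the lowest ratio, −2.05 (3.23 and 0.777), in a peak shared with Vps9d1. Zfp592 (−1.70), Zfp612 (−1.67), Zfp82 (−1.55) and Zfp358 (−1.44) came next. At the other end were Zfp273 at 0.42 (1.43 and 1.91), Zfp458 at 0.32, Zfp455 at 0.31, Zfp960 at 0.30 and Zfp493 at 0.27. Peaks were taller in replicate 2 for 13 clustered genes and no solitary one, that is 7.34% of open Zfp genes, beside 4.87% of all open genes. Of the 13, 8 lie in the neighbouring clusters 13-2 and 13-3 of chromosome 13.

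**Figure D2:**
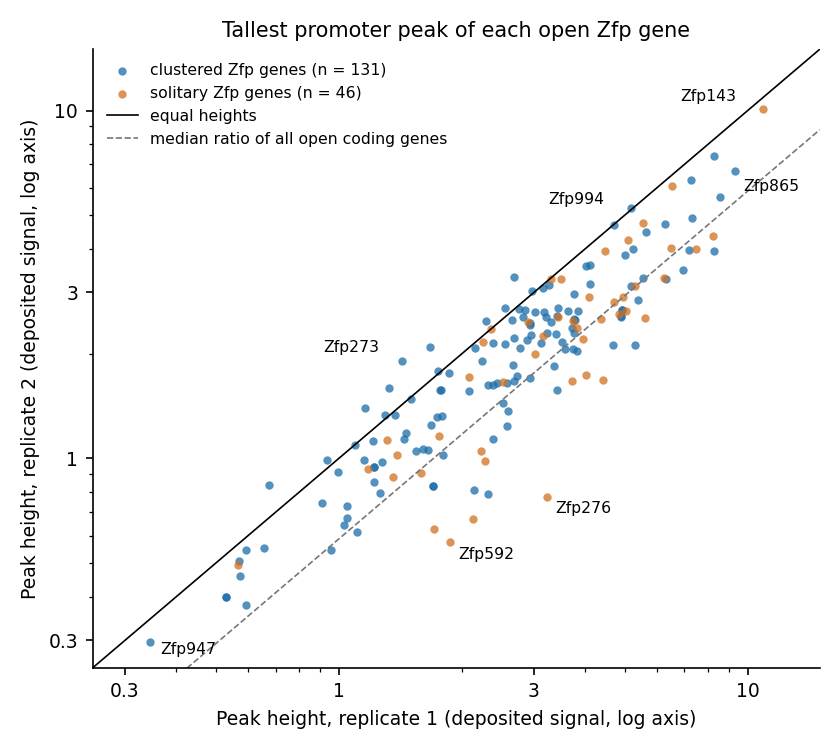
Height of the tallest promoter peak in replicate 1 (horizontal log axis) against replicate 2 (vertical log axis), in the authors' units, for 131 clustered (blue) and 46 solitary (orange) open Zfp genes. The solid line marks equal heights and the dashed line the median ratio of all open genes. Most points lie between the lines, Zfp143 is at the top of both axes and Zfp276 lies farthest below.

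The peaks sat at the start sites. The centre of the tallest replicate 1 peak was within 100 bp of an annotated TSS in 142 of 177 genes, a count not made over all genes. Its distance from the nearest TSS had quartiles of −53.5 and 7.5 bp, beside −80.5 and 0.5 bp over all open genes. The tallest peaks of both replicates overlapped in 168 of the 177, close to the 11600 of 12324 over all open genes. Around the representative TSS, the 20 bp bin centred 30 bp upstream held a peak in 81.5% of clustered genes in each replicate, in 65.5% of solitary genes in replicate 1 and 63.6% in replicate 2, and in 46.2% and 41.2% of all genes. The 177 genes had 173 distinct tallest peaks, since Zfp668 with Zfp646, Zfp934 with Zfp935, Zfp942 with Zfp943 and Zfp944 with Zfp758 share theirs. Another 14 genes share theirs with a gene outside the set. Leaving out all genes that share a peak, 155 of 168 (92.3%) were open, beside 51.1% of all genes. The 22 Zfp genes left out were all open, so their share could only fall.

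The largest clusters were 17-2 (chr17:21383748-22225616) and 7-9 (chr7:29768552-30169750) with 15 genes each and 13-2 (chr13:67038596-67553830) with 14, and every member of the 3 was open. All 15 genes of 17-2, 11 of 7-9 and 10 of 13-2 had the KRAB pattern. Heights differed more within the clusters than between their medians, which were 1.44, 2.96 and 2.04 in replicate 1 and 0.831, 2.07 and 2.12 in replicate 2.

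In cluster 17-2 the genes from Zfp677 to Zfp995 (Zfp54, Zfp51, Zfp53, Zfp52, Zfp948, Zfp983, Zfp760, Zfp229 and Zfp820 between them) lay from 0.570 to 2.43 in replicate 1 and from 0.459 to 1.78 in replicate 2. Zfp942 and Zfp943 share a peak of 1.70 and 0.831. The last 2 genes were the extremes: Zfp947 was the lowest of all open Zfp genes, and Zfp994, its neighbour at the distal edge, had 5.19 and 5.25, above every other member in both replicates. The promoter window of Zfp994 had 41.6% single-copy words, close to the 44.9% of Zfp947.

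Cluster 7-9 was more even. Zfp566 was its tallest, with 5.19 and 3.13, in a peak shared with the predicted gene Gm26920, and Zfp146 followed with 4.11 and 3.61. Zfp74 was the lowest by the geometric mean of both replicates, with 1.61 and 1.07. Zfp84, Zfp30, Zfp790, Zfp940, Zfp420, Zfp27, Zfp383, Zfp14, Zfp82 and Zfp382, with Zfp568 and Zfp260 above, lay between 1.33 and 3.75 in replicate 1. Zfp82 had the widest gap between animals, 2.32 and 0.790, and Zfp84 one of the narrowest, 2.96 and 3.03. Their promoters were almost free of copies, with a median of 99.2% single-copy words.

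Cluster 13-2 was led by Zfp87, with 4.11 and 3.17 in a peak shared with the predicted gene Gm26965, then Zfp457, with 3.27 and 3.16. Zfp459, with 0.591 and 0.378, was the lowest, and Zfp455 (0.674 and 0.837) and Zfp456 (0.958 and 0.547) were also under 1 in both replicates. Zfp712, Zfp708, Zfp759, Zfp458, Zfp595, Zfp953, Zfp429, Zfp58 and Zfp748 lay between 1.28 and 3.31 in replicate 1 and between 0.979 and 2.48 in replicate 2. Its CpG ratio had a median of 0.399, beside 0.474 in 17-2 and 0.622 in 7-9, and its promoters a median of 85.3% single-copy words.

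**Figure D3:**
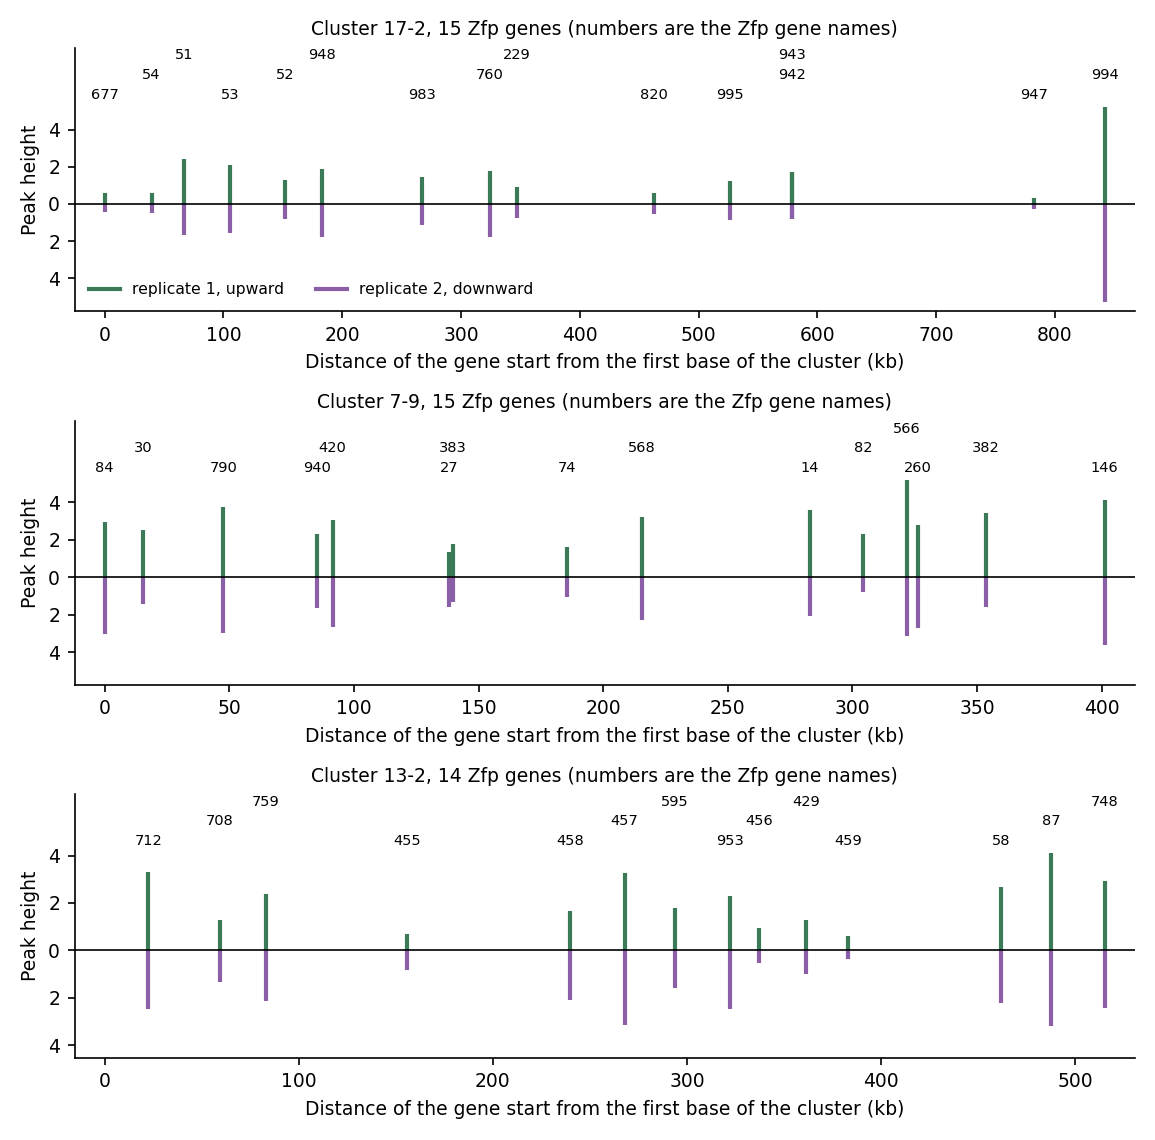
Promoter peak height of each Zfp gene of the 3 largest clusters, with replicate 1 upward and replicate 2 downward, against the distance of the gene's start from the first base of the cluster in kb. Zfp947 and Zfp994, the lowest and the tallest of cluster 17-2, are adjacent, and in cluster 13-2 Zfp87 reaches 4.11 and 3.17.

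Over all spans together, the clusters had fewer open regions away from promoters than the genome. The 25 cluster spans, 4.99 Mb in all, held 224 replicate 1 peaks that overlapped a replicate 2 peak. Of these, 34 (15.2%) lay outside every annotated TSS window, beside 63.0% of all such peaks in the genome. The spans run from the first to the last gene of a cluster, so they are rich in promoters by choice and the shares are not like for like. Per Mb, the spans held 6.81 such peaks away from start sites and the genome 10.4. Single-copy words were not counted between the genes, so the part of copies in this difference was not tested. In 10 clusters there was none, cluster 13-2 with its span of 515 kb among them. The others of these were shorter, from 22.95 kb (7-13) to 219 kb (7-10), and in a short span few such peaks can be found. In 9 of the 25 the number per Mb was above that of the genome, from 1 to 5 peaks in each. These included 7-9, with 12.5 per Mb, and the highest was 17-4, with 23.4 from 1 peak. Within gene bodies there were 0.482 shared peaks outside TSS windows per 100 kb in clustered, 1.68 in solitary and 1.30 in all genes. Among genes with single-copy promoters the values were 0.720, 2.08 and 1.36 in the same order. The longer lists moved the share in the spans to 20.9%, and that in the genome to 71.7%.

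The long 3' exons that encode the fingers were rarely open. A peak in both replicates, away from every TSS window, was found in 4 of 190 genes, 2.11% (interval 0.577% to 5.30%), beside 3.82% of all genes. With each replicate read by itself, the 4 shared genes included, replicate 1 had 8 genes (4.21%), beside 6.21% of all. Replicate 2 also had 8 (4.21%), beside 5.83%. In the longer lists there were 7 genes, beside 6.78% of all. The members' 3' exons were longer, with a median of 2844.5 bp against 1416 bp, and among genes with 3' exons over 1000 bp the shares were 3 of 180 (1.67%) and 5.15%. Copies matter here too: 3' exons had a median of 92.2% single-copy words in Zfp genes and 98.2% in all genes. With 3' exons of at least 90%, the shares were 4 of 105 (3.81%) and 4.75%. In 167 of the 190 genes there was no 3' exon peak in any of the 4 lists. The same count was not made over all genes, so it is no trait of the Zfp genes.

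Zfp771 stood apart among the 4. Its 3' exon peak (chr7:127254161-127254460 in replicate 1) had heights of 5.84 and 3.16, above those of its own promoter, 4.68 and 2.11. It lay wholly in coding sequence, 6398 bp from the nearest TSS, and its CpG ratio was 1.33. The peak of Zfp78 was also coding, with heights of 0.686 and 1.42. Those of Zfp444 (1.22 and 0.945) and Zfp710 (1.22 and 1.07) lay outside the coding bases of the exon. In these 4 genes the peaks of both replicates overlapped, and Zfp78 was the only KRAB gene among them.

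**Figure D4:**
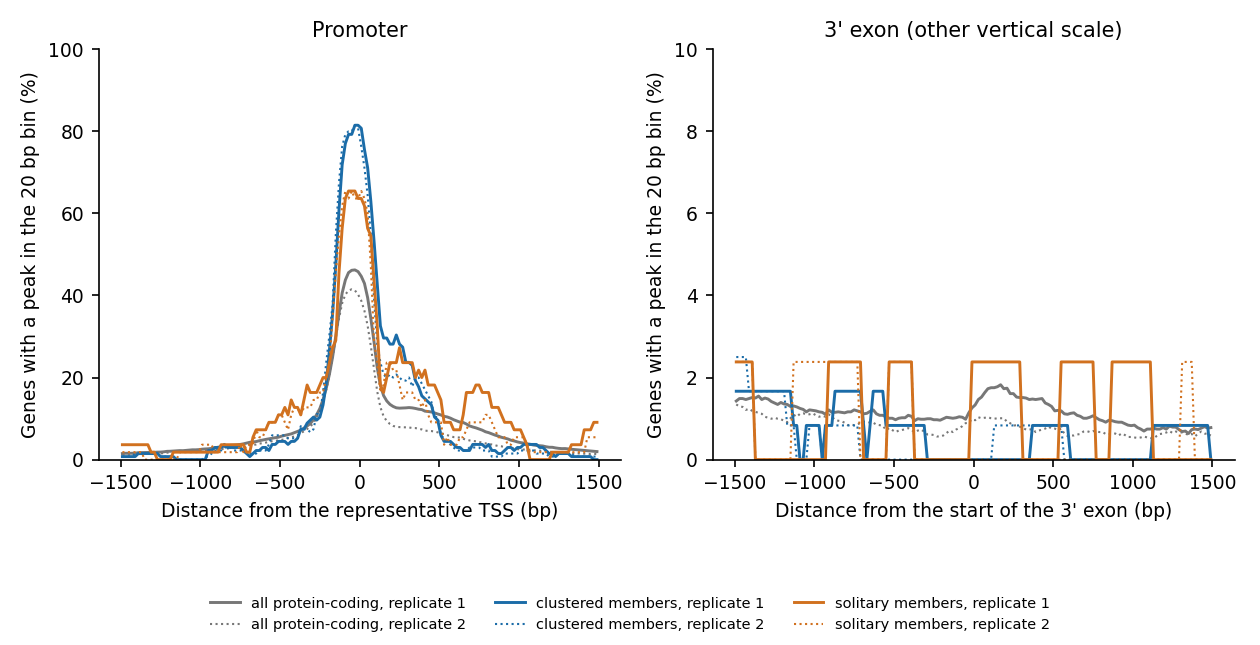
Share of genes with a peak in each 20 bp bin (vertical axes, percent, on different scales) by distance from the representative TSS (left) and from the start of the 3' exon, for genes whose last exon is at least 1500 bp (right). Lines stand for clustered, solitary and all genes, solid for replicate 1 and dotted for replicate 2. Clustered genes reach 81.5% just upstream of the TSS, and in the 3' exon panel no line passes 2.50%.

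Footprints followed the peaks. Open Zfp promoters held a median of 7 footprints in replicate 1 and 5 in replicate 2, beside 8 and 6 over all open genes. Per kb of promoter window they held 3.50 and 2.59, beside 2.74 and 1.98. The part of window length, which grows with the number of start sites, was not tested. Of the replicate 1 footprints of Zfp promoters 45.3% overlapped one of replicate 2, beside 46.3% for all open genes. The most were found at Zfp617 (15 and 14), Zfp710 (19 and 10), Zfp524 (13 and 14), and, with equal sums, Zfp668 (15 and 11) and Zfp444 (12 and 14). Zfp947, the lowest promoter, had 4 in replicate 1 and 0 in replicate 2.

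In the 3' exons footprints were scarce, and most were outside the KRAB genes. Zfp genes had 0.142 per kb in replicate 1 and 0.0548 in replicate 2, beside 0.189 and 0.110 over all genes. Members with KRAB had 0.0196 and 0.0318, and those without 0.427 and 0.108. A few genes weigh heavily in these values. Of the 75 replicate 1 footprints without KRAB, 22 lay in Zfp574 and 9 in Zfp579, which both had 0 in replicate 2. Of the 13 replicate 2 footprints with KRAB, 7 lay in Zfp78. With single-copy 3' exons the values were 0.0333 and 0.0556 with KRAB and 0.487 and 0.127 without. The order was the same in both replicates and its size differed widely between them. No 3' exon footprint was found in either replicate in 169 genes, 88.9%, beside 88.1% of all genes.

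Short motifs were counted from 250 bp before to 50 bp after the representative TSS, on both strands. The ETS motif CCGGAAG was found in 45 of 190 Zfp promoters (23.7%), beside 11.2% of all. NF-Y sites, CCAAT, were in 89 (46.8%), beside 38.4%, and in 53.1% of KRAB genes. The SP motif GGGGCGGGG was rarer, in 15 (7.89%) beside 15.5%, and in 2.34% of KRAB genes. ACTACAATT, a form of the Zfp143 motif, was in 8 (4.21%), beside 0.524%. TATAAA was in 13 (6.84%), beside 12.5%. NRF1 sites, GCGCATGC, were in 12 (6.32%), beside 3.77%. With open promoters alone, the shares of Zfp genes and of all genes were 22.6% and 17.7% for ETS, 46.9% and 38.9% for NF-Y, and 7.91% and 22.1% for SP. They were 4.52% and 0.755% for ACTACAATT, 7.34% and 6.79% for TATAAA, and 6.78% and 5.50% for NRF1, so the difference for TATAAA was small among open promoters. In the open promoters, footprints of both replicates overlapped 17 of 20 NRF1 sites of Zfp genes, beside 76.2% of the sites of all genes, and 6 of 8 ACTACAATT sites, beside 39.8%. They overlapped 15 of 45 ETS sites, beside 31.1%, and 29 of 125 NF-Y sites, beside 17.1%. For SP the counts were 9 of 17, beside 57.9%, and for TATAAA 1 of 18, beside 10.2%. A match of letters is a description and not a binding site.

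The 8-base stretches printed at the start were picked after the sequences had been seen, as those most in excess over all open promoters in 300 bp centred on the replicate 1 peak, so their shares are descriptions. Element 1, AATGTAGT, was in 28 of the 127 distinct peaks of clustered genes (22.0%), in none of 46 solitary ones and in 1.65% of all 11143 open promoter peaks. For 0 of 46 a count of 0 allows a share of up to 6.52%. It was in 10 of 15 peaks of cluster 7-9, 7 of 14 of 13-2 and 5 of 10 of 7-6, and in none of 17-2. Of the 28 sites 11 overlapped footprints of both replicates, 39.3% beside 35.9% for all sites. They lay at a median of 40 bp before the nearest start of their gene. By its letters the element resembles ACTACAATT on the other strand, with which it shares ACTACA.

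Element 2, AGGTTGGT, was in 14 of 14 peaks of cluster 13-2, in 3 of 5 of 13-3 and in no other Zfp gene described here, beside 0.691% of all open promoter peaks. It lay downstream of the start, at a median of 62 bp, and none of its 17 sites overlapped a footprint in both replicates, beside 10 of 77 sites in all open promoter peaks, a share too low for 17 sites to show a difference. Element 3, CCCGGAAA, which shares CCGGAA with the ETS motif, was in 7 of 14 peaks of cluster 17-2 and in 12 of 127 of all clustered genes (9.45%), beside 2.06% of all. Element 4, CTGTCACT, was the leading one of solitary genes: Zfp788, Zfp958, Zfp791, Zfp938, Zfp367, Zfp945, Zfp40, Zfp414 and Zfp959 held it, 9 of 46 peaks (19.6%), beside 6 of 127 clustered peaks and 1.85% of all.

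**Figure D5:**
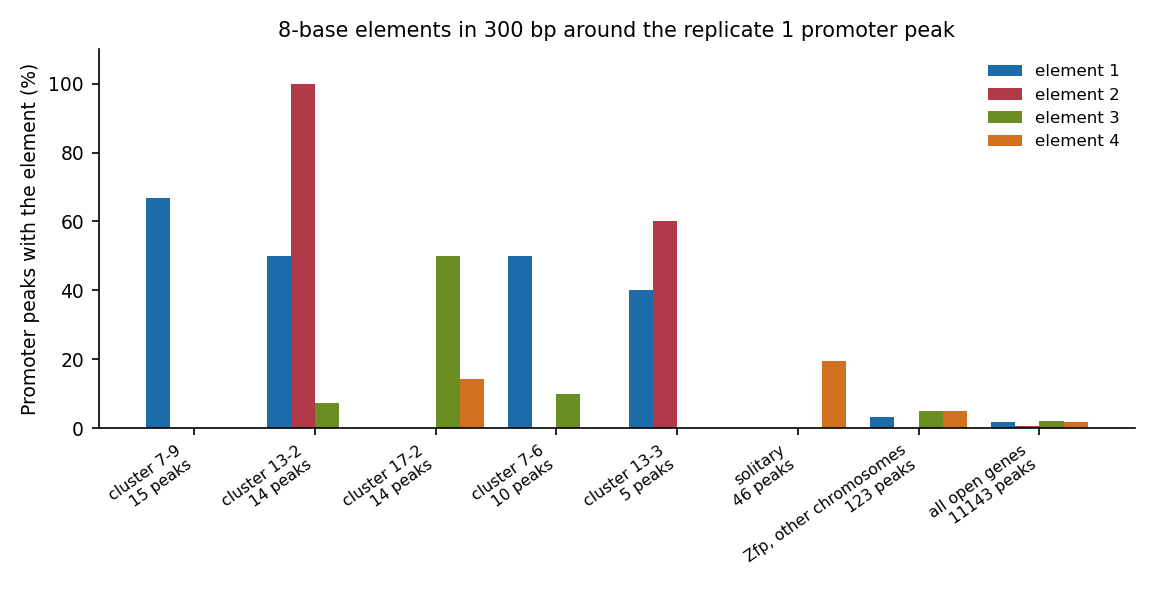
Share of distinct promoter peaks that hold each 8-base element within 300 bp centred on the replicate 1 peak (vertical axis, percent), for 5 clusters, solitary Zfp genes, Zfp genes on other chromosomes and all open genes, with the number of peaks under each group. Element 2 is at 100% in cluster 13-2, element 1 at 66.7% in cluster 7-9, and element 3 in 7 of 14 peaks of cluster 17-2. Elements 2 and 3 were picked in clusters 13-2 and 17-2.

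Genes that act with KRAB proteins were open in this tissue. All 22 genes of a list of their silencing pathway had a promoter peak in both replicates, beside 56.2% of all genes, with a median height of 5.15 and 2.68, beside 3.73 and 2.11. Their CpG ratios ran from 0.593 to 1.12, and in the CpG classes from 0.6 up 85.1% and 92.3% of all genes were open. Trim28, the co-repressor that binds KRAB, had 5.24 and 2.24, and Setdb1, the methyltransferase it recruits, had 5.11 and 2.44. Mphosph8 of the HUSH complex was the tallest, with 11.3 and 7.10, and Atrx the lowest in replicate 1, with 1.54 and 1.20.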

How the data were processed

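DNase-seq was carried out on left cerebral cortex of 2 mice, the only group. The authors deposited, for each replicate, 2 peak lists on mm10, a list of footprints and a track of false discovery rates. Peak heights are the deposited signal, per the file headers and values, on a scale that is not given. The false discovery rate is the authors' p-value adjusted for multiple testing (a q-value), listed by position. The footprint lists carry a deposited score that is constant at 0.01 and was not used as a measure. The sources used here name no aligner, caller or setting, and sequencing depth is unknown. What sets the 2 peak lists of a replicate apart is not given either, and the shorter was used throughout unless the longer is named. The labels call the samples biological replicates.

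Overlapping peaks were joined and assigned to the 21938 genes of GENCODE M21 by an overlap of at least 1 bp with 500 bp on both sides of any TSS. The 3' exon was read outside those windows. The uniqueness of 25-base words was counted over the mm10 genome. Fingers and KRAB domains were found by residue patterns in proteins translated from the annotated coding sequences, not in RefSeq proteins as first planned, and the loose KRAB pattern was widened after chromosome 7 genes had been seen to carry a variant, so counts of KRAB genes depend on it. Python 3.11.15, numpy 2.4.6, pandas 2.3.3, scipy 1.17.1, pysam 0.24.0 and matplotlib 3.10.9 were used, and the counting was tested on simulated data. Shares have exact 95% Clopper-Pearson intervals, and the limit for a count of 0 is 3 counts. No test between groups was made, because there was 1 group and neighbouring genes share sequence.

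Genes named are the 8 tallest and 6 lowest promoters, those not open, those with a 3' exon peak in both replicates, the 4 with most footprints (5 with a tie), the 5 largest ratios in each direction, the 3 largest clusters and genes of known role. Zfp667, Zfp598, Zfp579 and the genes with element 4 were named after their values were seen. The members and lists were chosen with earlier results of these data known.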

Additional observations from a re-analysis of the deposited data

How the results depend on the processing

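Of 50 alternatives, 45 left the value within its error and 5 moved it. A reversal was looked for only in the 14 on clustered against solitary genes, and none was found. For heights and footprints the error was the standard deviation of the 2 replicate values. For 3' exon footprints the value without a replicate cannot pass that limit, so staying within it there was fixed in advance. For heights the limit, 0.524, came from medians of the same 2 replicates. Staying within it without a replicate (2.09 and 2.80, against 2.49 with both) therefore says little. The share of Zfp genes with an open promoter, 93.2%, was 88.4% with the representative TSS alone (all genes 51.5%) and 83.7% with the taller part of each peak list (all genes 50.3%). The median number of promoter footprints, 5.5 over both replicates, was 5 without replicate 1 and 7 without replicate 2. Element 2 was found in 1.57% of clustered promoters when the window was placed at the TSS instead of the peak. That window ended 50 bp after the representative TSS. The sites of element 2 lay at a median of 62 bp after the nearest start of their gene, from 24 to 110 bp. The part of the window's end in the lower share was not tested. The share of Zfp genes with a 3' exon peak, 2.11%, was 4.21% without replicate 1 (all genes 5.83%). Without replicate 2 it was also 4.21% (all genes 6.21%). With the narrower KRAB pattern, 93.3% of genes with it and 93.0% of those without were open, and 3' exon footprints per kb were 0.0209 and 0.0340 with it and 0.371 and 0.0941 without. The share of peaks outside TSS windows in the cluster spans was 20.9% with the longer lists. The alternatives on shared peaks, KRAB or finger-rich genes alone, copies in the 3' exon, element windows and the longer lists in the spans were chosen after seeing the data. No paired analysis was possible because there is a single group. Depth is unknown, so a promoter without a peak may still be open below detection, above all where it has copies elsewhere.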

Other observations

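The 175 genes named Zfp and a number on the other chromosomes were open in 129 cases (73.7%), fewer than the 93.2% of those on chromosomes 7, 8, 10, 13 and 17. With promoters of at least 90% single-copy words 115 of 129 (89.1%) were open, and below that 14 of 46 (30.4%). Among all 639 genes with 3 or more C2H2 fingers 484 (75.7%) were open. Element 1 was in 4 of 123 promoter peaks of the Zfp genes on other chromosomes and element 2 in none.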
